A study of Mus musculus with 5 samples.

Results

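Ubiquitin-specific proteases were described across wild-type (WT) and Trip12 mutant mouse embryonic stem cells. A gene was taken where the single gene symbol annotated to its probe set began with Usp and a number, and its brightest probe set, by the average over the 5 arrays, stood for it. This gave 51 of 18193 genes, from 128 of 45037 probe sets. Of the 51 genes, 49 carry names of the protease family and 2 do not encode such proteases. These are Usp6nl, a GTPase-activating protein for Rab proteins, and Usp46os2, a non-coding transcript opposite Usp46. The members lie on 17 chromosomes, except that Usp46os2 had no chromosome in the table used. The mean over the arrays lay above 5.52, the median of all log2 values, for 44 of the 51 genes (86.3%), against 63.5% of all genes measured. The 7 dim members were Usp44, Usp50, Usp29, Usp43, Usp46os2, Usp26 and Usp9y.

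Ubiquitin is a small protein that is joined to other proteins, often as chains, and marks them for degradation by the proteasome or for sorting, signalling and repair. Ligases such as Trip12, an E3 ligase of the HECT family, attach it. Ubiquitin-specific proteases form the largest family of deubiquitinases, the cysteine proteases and metalloproteases that take ubiquitin off again, and several of them act on substrates of E3 ligases in DNA repair, on histones and at the proteasome.

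The study measured RNA of E14 cells, an established mouse embryonic stem cell line, on 5 Affymetrix arrays. There were 2 WT arrays and 3 arrays labelled Trip12 mut/mut, a homozygous Trip12 mutation. Cells of both genotypes were grown on a feeder layer of mouse embryo fibroblasts, in medium with serum replacement, fetal bovine serum and leukaemia inhibitory factor. The samples are labelled as biological replicates. What the mutation is, whether the mutant cells come from 1 clone, how the replicates were made and whether feeder cells were removed before RNA extraction were not given in the sources used here. P-values therefore measure only the spread between these samples.

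The array labelled Trip12 mut/mut replicate 1 stood with the WT arrays. It differed more than 2-fold from either WT array at 0 probe sets, as the WT arrays did from each other, while mut/mut replicates 2 and 3 did so at 293 to 545. The brightest Trip12 probe set read 10.17 and 10.25 in WT, and 10.18, 12.09 and 12.57 in the arrays labelled mut/mut replicates 1, 2 and 3. Over the arrays without replicate 1, 6 of 7 Trip12 probe sets read above WT and 1 below it, by -0.64 (log2). Comparisons are therefore given for all 5 arrays as labelled and for the 4 arrays without the array labelled replicate 1, except that further probe sets of a gene were compared over the 4 arrays. That array was set aside for its values, which makes p-values over 4 arrays too small. Markers of embryonic stem cells were present on every array, with an average over 8 genes of 11.69 and 11.70 in WT and 11.68, 11.55 and 11.63 in the mutant arrays (log2), and none was dim. The average of 17 fibroblast markers was 10.34 and 10.35 in WT and 10.32, 10.79 and 10.82 in the mutant arrays, none of them dim. Over the 4 arrays 5 fibroblast markers rose and 0 fell, and Utf1 was the 1 of 8 stem cell markers that fell, with 0 that rose (limma, Benjamini-Hochberg). Of all genes in that fit 3.29% rose and 1.34% fell. The part of these shifts in the results below was not tested. In such bulk RNA, fewer cells of a type and less RNA per cell cannot be told apart.

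With all 5 arrays as labelled, no gene of the whole table could be called, and so none of the family. Of 51 members 0 passed an adjusted p of 0.05 in limma with Benjamini-Hochberg adjustment over all 18193 genes, of which 0% passed. The smallest adjusted p of a member was 0.748, which is also the smallest over all genes. At an unadjusted p under 0.05 there were 0 members, against 1.18% of all genes. Differences (Trip12 mut/mut minus WT, log2) lay between -0.36 and 0.45, with a median of -0.04 over the members and 0.02 over all genes, and 21 members read above WT and 30 below, where 56.3% of all genes read above. The median 95% interval reached 0.30 to either side of a difference. The groups did not overlap for 3 members (5.88%), against 12% of all genes. These were Usp39, Usp5 and the dim Usp26, all lower in the mutant arrays, where 6.29% of all genes were lower and 5.73% higher.

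Over the 4 arrays and after removal of dim genes, no Usp gene passed the threshold with the deposited values, and the call for Usp28 and Usp18 depends on the processing. Of the 44 members in that limma fit 0 passed the adjusted threshold (Benjamini-Hochberg), while 4.64% of the 11626 genes fitted passed it. At an unadjusted p under 0.05 there were 7 members (15.9%), namely Usp18, Usp3, Usp40 and Usp8 above WT and Usp28, Usp5 and Usp14 below. The shares over all genes fitted were 28.8% in either direction, 19.8% above and 8.98% below. Over all 51 members the differences ran from -0.54 to 0.67 (log2), with a median of -0.01 against 0.02 over all genes. In this comparison 23 members read above WT and 28 below, where 54.9% of all genes read above. A difference of at least 0.5 in size was seen for 2 members, Usp18 and Usp39, which is 4.55% of the 44 bright members against 13.1% of all bright genes. At least 0.3 was reached by 9 of the 44 bright members (20.5%), against 31.7%. Both mutant arrays lay above both WT arrays for 8 members and below for 12, together 39.2% of the 51, where all genes had 44.2%. By direction, 26.7% of all genes lay above and 17.5% below. The smallest adjusted p of a member was 0.0607, for Usp28, and the median 95% interval reached 0.27 to either side.

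**Figure D1:**
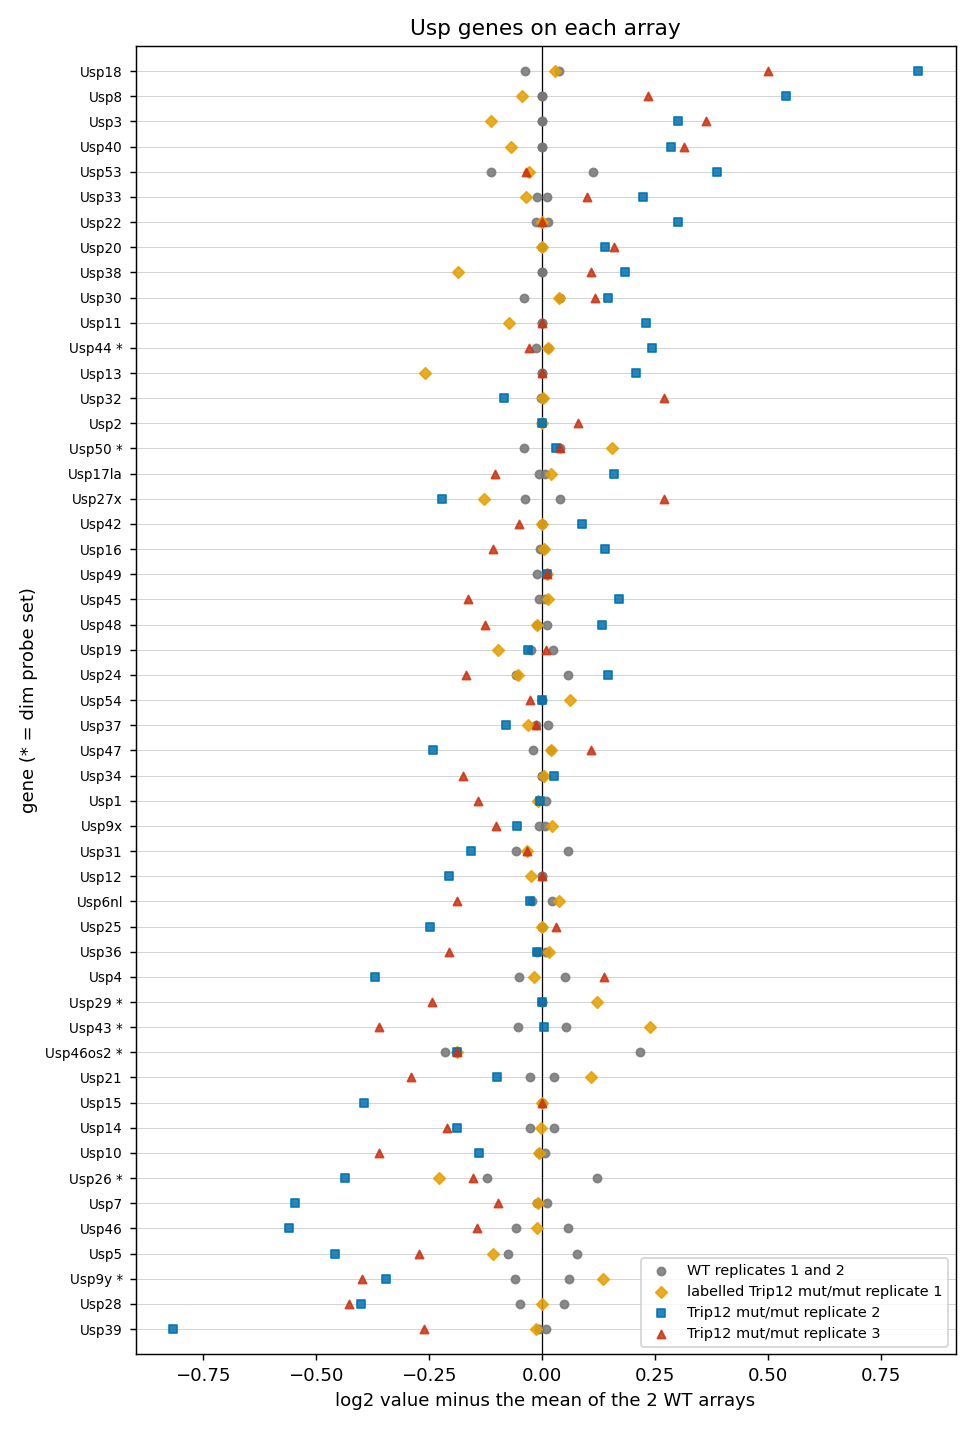
Log2 value of each of the 51 Usp genes on each array minus the mean of the 2 WT arrays (x axis), with 1 line per gene (y axis) in the order of the difference over 4 arrays; a star marks a dim probe set. The array labelled Trip12 mut/mut replicate 1 (diamonds) lies near the WT arrays, while replicates 2 (squares) and 3 (triangles) spread from 0.83 for Usp18 to -0.82 for Usp39, both in replicate 2.

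The plot of all members by array shows how the 3 mutant arrays differed. The array labelled replicate 1 lay within 0.1 (log2) of the WT mean for 39 of 51 members, and its largest departure was 0.26, at Usp13. Replicate 2 lay more than 0.2 from the WT mean for 23 members (10 above, 13 below), and replicate 3 for 16 (6 above, 10 below). The array labelled replicate 1 did so for 3. Over all genes the shares were 43.3% for replicate 2, 36.8% for replicate 3 and 5.74% for the array labelled replicate 1. For 8 members replicates 2 and 3 both lay more than 0.2 from the WT mean on the same side. Usp18, Usp8, Usp3 and Usp40 lay above, as 14% of all genes did, and Usp28, Usp39, Usp5 and the dim Usp9y below, as 7.26% did. For another 8 members, Usp17la, Usp27x, Usp16, Usp45, Usp48, Usp24, Usp47 and Usp4, replicates 2 and 3 lay on opposite sides of the WT mean by more than 0.1 each (15.7% of the members, against 5.97% of all genes). Exactly equal values on at least 2 arrays were found in 28 members (54.9%), as in 57.4% of all genes, and a spread of 0 between such arrays is not a measured precision.

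**Figure D2:**
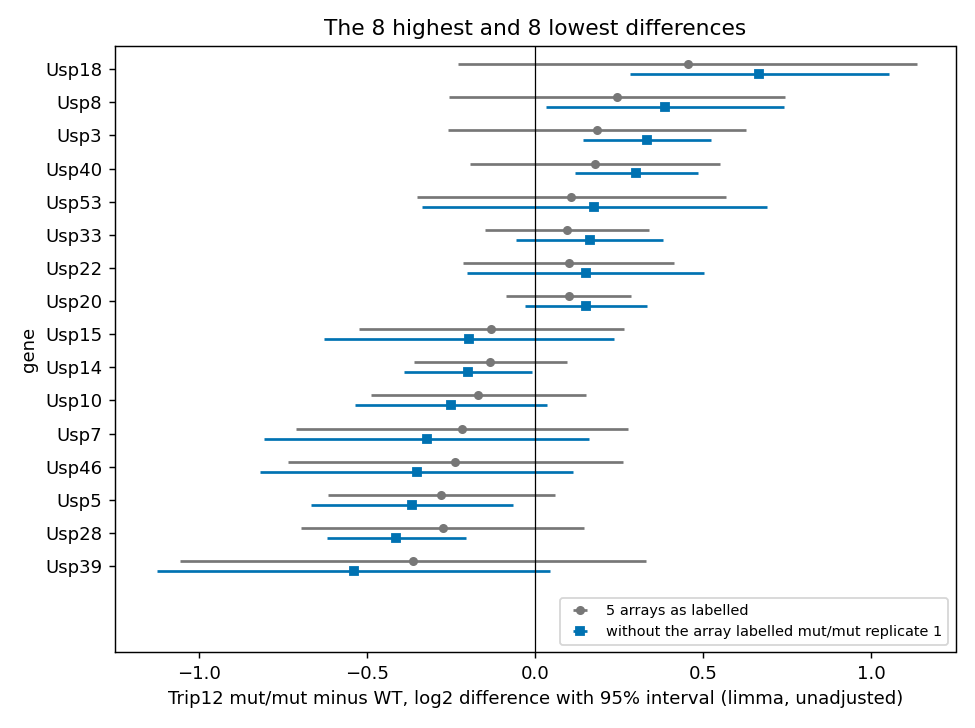
Difference between Trip12 mut/mut and WT (x axis, log2) with its unadjusted 95% interval from limma for the 8 bright members with the highest and the 8 bright members with the lowest difference over 4 arrays (y axis). Circles are the 5 arrays as labelled and squares the 4 arrays without the array labelled replicate 1; every 5-array interval crosses 0, and the 4-array intervals of Usp18, Usp8, Usp3, Usp40, Usp14, Usp5 and Usp28 do not.

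Among the members that act in signalling, Usp18 had the highest difference of the family. Usp18 removes the ubiquitin-like protein ISG15 from proteins, dampens signalling of the interferon receptor and is itself induced by interferon. It read 9.63 and 9.55 in WT, and 9.62, 10.43 and 10.09 in mut/mut replicates 1, 2 and 3 (the order used for every gene here). Replicates 2 and 3 were 1.78-fold and 1.41-fold the WT mean, and the array labelled replicate 1 lay between the WT arrays. With 5 arrays the means were 9.59 ± 0.05 (SD, n = 2) and 10.05 ± 0.40 (SD, n = 3), a difference of 0.45 (SE 0.25, limma adjusted p = 0.748). Over 4 arrays it was 0.67 (SE 0.14, 95% interval 0.28 to 1.05), or 1.59-fold, with a limma adjusted p of 0.0735. With array medians set equal, Usp18 passed over 4 arrays (limma adjusted p = 0.0463). It also passed with probe sets averaged per gene (limma adjusted p = 0.0459). Usp18 has 1 probe set, so its own values are unchanged by that averaging and only other genes differ. Without the filter it did not pass (limma adjusted p = 0.137), nor with array weights, where no gene passed.

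Interferon response genes were set beside Usp18, with 8 of 10 listed measured, of which Mx1 was dim. Their average was 8.85 and 8.85 in WT and 8.79, 9.29 and 9.26 in the mutant arrays. All 8 read above WT over 4 arrays by their means, with a median difference of 0.24 (0.14 with 5 arrays). In 6 of them both mutant arrays lay above both WT arrays, as for 26.7% of all genes. The exceptions were Mx1, with a difference of 0.02, and Bst2, where replicate 2 lay below both WT arrays. Of the 7 in the limma fit 3 rose and 0 fell (Benjamini-Hochberg), against 3.29% and 1.34% of all genes fitted. The 3 were Oas2, a sensor of double-stranded RNA (1.27, adjusted p = 0.043), Irf7, a transcription factor of the interferon response (0.91, adjusted p = 0.042) and Ifih1, an RNA sensor (0.52, adjusted p = 0.0467). With all 5 arrays their differences were 0.84, 0.60 and 0.325 in turn, and 0 of the 8 passed. The fibroblast markers given above were also higher on replicates 2 and 3, and their part in the values of Usp18 and the interferon genes was not tested.

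**Figure D3:**
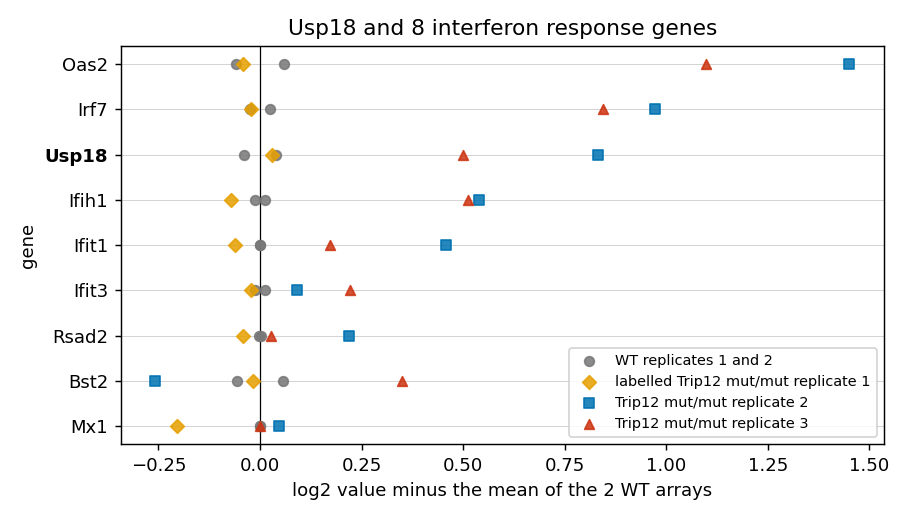
Usp18 and 8 interferon response genes (y axis), as the log2 value on each array minus the mean of the 2 WT arrays (x axis). Usp18 reads 0.83 and 0.50 above the WT mean in mut/mut replicates 2 and 3 and 0.03 in the array labelled replicate 1, and Oas2 and Irf7 lie farther to the right in replicates 2 and 3.

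The other members with signalling roles, Usp9x, Usp15, Usp34, Usp25 and Usp21, did not pass in either comparison. Usp9x, which acts on many substrates in polarity and signalling, read 9.74 and 9.72 in WT and 9.75, 9.67 and 9.63 in the mutant arrays. Its difference was -0.04 with 5 arrays and -0.08 over 4 (limma adjusted p = 0.483). The 4 bright further probe sets of the gene also read below WT by their means, from -0.24 to -0.04. In only 1 of these 4 did both mutant arrays lie below both WT arrays, and in the others the groups overlapped. Usp15, which acts on SMAD signalling, was at 9.02 on both WT arrays and on replicates 1 and 3 and at 8.63 on replicate 2. At this probe set its difference of -0.13 with 5 arrays and -0.20 over 4 thus rests on replicate 2. Its 2 further bright probe sets differed by -0.28 and -0.20 over 4 arrays, with replicate 3 below both WT arrays in each. Usp34, known from Wnt signalling through axin, read 11.10 and 11.10 in WT and 11.10, 11.13 and 10.92 in the mutant arrays. Its 2 further probe sets went apart, at -0.17 and 0.22. Usp25 read 8.29 on both WT arrays, and 8.29, 8.04 and 8.32 on the mutant arrays. Usp21, which also acts on histone H2A, read 7.87 and 7.92 in WT and 8.01, 7.80 and 7.61 in the mutant arrays. In replicates 2 and 3 it lay below both WT arrays and in the array labelled replicate 1 above them, a difference of -0.09 with 5 arrays and -0.20 over 4 (SE 0.10, limma adjusted p = 0.277).

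The members known from DNA repair and the p53 pathway numbered 11, all bright, of which 0 passed in either comparison. Their median difference was -0.04 with 5 arrays and -0.07 over 4, with 4 above WT and 7 below over 4 arrays. Usp28, which stabilises proteins of the DNA damage response and Myc, read 9.37 and 9.47 in WT and 9.42, 9.02 and 8.99 in the mutant arrays. Replicates 2 and 3 lay close together, below both WT arrays, and the array labelled replicate 1 between the WT arrays. The difference was -0.28 with 5 arrays (SE 0.16, limma adjusted p = 0.748) and -0.41 over 4 (SE 0.07, 95% interval -0.62 to -0.21, limma adjusted p = 0.0607), which is 1.33-fold lower. Over 4 arrays Usp28 passed with quantile normalisation (limma adjusted p = 0.045) and with array medians set equal (0.0456). It also passed with probe sets averaged per gene (limma adjusted p = 0.0323). Usp28 has 1 probe set, so that averaging leaves its own values unchanged and only other genes differ. No other probe set of the gene bears on it. Without the filter Usp28 did not pass (limma adjusted p = 0.0885), nor with array weights, where no gene passed. Its paralogue Usp25, given above, differed by -0.07 with 5 arrays and -0.11 over 4.

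Usp7, which takes ubiquitin off both p53 and its ligase Mdm2, has 7 probe sets. The brightest read 11.53 and 11.55 in WT and 11.53, 10.99 and 11.44 in the mutant arrays. The difference was -0.22 with 5 arrays (SE 0.18, limma adjusted p = 0.748). Most of its difference over 4 arrays, -0.32 (SE 0.17, limma adjusted p = 0.313), comes from replicate 2, at 0.684 times the WT mean, where replicate 3 was at 0.934 times. All 6 further probe sets also read below WT, by -0.38 to -0.12, and in 5 of them both mutant arrays lay below both WT arrays. Probe sets of 1 gene share the same RNA and are not replicates.

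Usp10, which acts on p53 in the cytoplasm, read 10.22 and 10.21 in WT and 10.21, 10.07 and 9.85 in the mutant arrays, a difference of -0.17 with 5 arrays and -0.25 over 4 (SE 0.10, limma adjusted p = 0.214). Usp1, which acts on Fancd2 and Pcna in DNA repair, read 11.47 and 11.45 in WT and 11.45, 11.46 and 11.32 in the mutant arrays. Its brightest probe set thus differed by -0.05 with 5 arrays and -0.07 over 4, while a further one differed by -0.55, with values of 9.19 and 9.06 in WT and 9.06, 8.29 and 8.86 in the mutant arrays. Usp48 showed a similar split between probe sets, with 0.00 for the brightest and 0.31 and 0.14 for the 2 further ones, both above WT in both mutant arrays. Usp4 read 8.93 and 9.04 in WT and 8.97, 8.61 and 9.12 in the mutant arrays, and its paralogue Usp11 7.24 and 7.24 in WT and 7.16, 7.47 and 7.24. In neither did replicates 2 and 3 lie together on 1 side of WT.

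Of 11 listed members that act on histones or in transcription 10 were measured, 9 of them bright, and 0 passed. Their median difference was -0.008 with 5 arrays and 0.01 over 4, with 6 above WT and 4 below over 4 arrays. Usp3, which removes ubiquitin from histone H2A, read 7.70 and 7.70 in WT and 7.59, 8.001 and 8.063 in the mutant arrays. Replicates 2 and 3 were 1.23-fold and 1.29-fold the WT mean and the array labelled replicate 1 lay below it by -0.11. The difference was 0.18 with 5 arrays (SE 0.17, limma adjusted p = 0.748) and 0.33 over 4 (SE 0.07, 95% interval 0.14 to 0.52, limma adjusted p = 0.0731). All 3 further bright probe sets of Usp3 read above WT by their means, by 0.16 to 0.37. In 2 of these both mutant arrays lay above both WT arrays, and in the one at 0.16 the groups overlapped.

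Usp22, the deubiquitinase of the SAGA coactivator complex, read 10.49 and 10.51 in WT and 10.50, 10.80 and 10.50 in the mutant arrays, so replicate 2 stood alone. Its paralogue Usp27x read 7.21 and 7.13 in WT and 7.04, 6.95 and 7.44 in the mutant arrays, with replicates 2 and 3 on opposite sides. Usp46, which like Usp12 and Usp1 is activated by the partner protein Wdr48, read 8.01 and 7.90 in WT and 7.95, 7.40 and 7.81 in the mutant arrays. That is -0.24 with 5 arrays and -0.35 over 4 (SE 0.17, limma adjusted p = 0.265), but the second Usp46 probe set held 7.69 on all 5 arrays. Usp12 was at 8.46 on both WT arrays and on replicate 3, and at 8.43 and 8.25 on replicates 1 and 2. Usp16, which acts on histone H2A, read 9.001 and 9.009 in WT and 9.01, 9.14 and 8.90 in the mutant arrays, and Usp45 9.27 and 9.25 in WT and 9.27, 9.43 and 9.10. Both of these had small differences, 0.01 and 0.01 with 5 arrays and 0.02 and 0.00 over 4, with replicates 2 and 3 on opposite sides of WT. Usp36, a nucleolar protease, differed at its brightest probe set by -0.07 with 5 arrays and -0.11 over 4, and by -0.40 and -0.33 at the 2 further ones.

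The 3 members that act at the proteasome or on free ubiquitin chains were all bright, and 0 passed. Usp5, which takes apart unanchored ubiquitin chains, read 9.06 and 9.22 in WT and 9.03, 8.68 and 8.87 in the mutant arrays. All 3 mutant arrays lay below both WT arrays, the array labelled replicate 1 by the least, and its unadjusted p over 5 arrays of 0.0846 (limma) was the smallest of the members. The difference was -0.28 with 5 arrays (SE 0.13, limma adjusted p = 0.748) and -0.36 over 4 (SE 0.11, 95% interval -0.67 to -0.07, limma adjusted p = 0.127). Its paralogue Usp13 read 6.17 and 6.17 in WT and 5.91, 6.37 and 6.17 in the mutant arrays, with no common side. Usp14, a protease bound to the proteasome, read 10.48 and 10.43 in WT and 10.45, 10.27 and 10.25 in the mutant arrays. It differed by -0.13 with 5 arrays and -0.20 over 4 (SE 0.07, limma adjusted p = 0.161). Its 3 further bright probe sets read below WT too, by -0.23 to -0.05, but in each of them the groups overlapped over 4 arrays.

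Of the 7 members at endosomes, other membranes and mitochondria, all bright, 0 passed and 5 read above WT over 4 arrays, with a median of 0.13 (0.10 with 5 arrays). Usp8, which takes ubiquitin off receptors at the endosome, read 9.37 and 9.37 in WT and 9.32, 9.91 and 9.60 in the mutant arrays. Replicates 2 and 3 were 1.45-fold and 1.18-fold the WT mean. Its difference was 0.24 with 5 arrays (SE 0.19, limma adjusted p = 0.748) and 0.39 over 4 (SE 0.13, 95% interval 0.03 to 0.74, limma adjusted p = 0.152). Usp33 and Usp20, paralogues that act on the beta-adrenergic receptor, differed by 0.10 and 0.10 with 5 arrays and by 0.16 and 0.15 over 4. Usp33 read 8.78 and 8.75 in WT and 8.73, 8.99 and 8.87 in the mutant arrays, and Usp20 6.42 on both WT arrays and 6.42, 6.56 and 6.58. The Usp20 value turns to -0.225 with 5 arrays and -0.25 over 4 when the gene is represented by its most variable probe set, and it was not called with 5 arrays. That probe set is dim, at 4.45 and 4.11 in WT and 4.11, 3.95 and 4.11 in the mutant arrays. The filter over 4 arrays removes it, so it could not be called there. Usp30, an outer mitochondrial membrane protease, differed by 0.10 with 5 arrays and 0.13 over 4, with its further bright probe set at 0.27.

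Usp40, in none of the role lists, read 7.80 and 7.80 in WT and 7.73, 8.08 and 8.11 in the mutant arrays. Replicates 2 and 3 were alike, and the array labelled replicate 1 lay below WT. The difference was 0.18 with 5 arrays (SE 0.14, limma adjusted p = 0.748) and 0.30 over 4 (SE 0.07, 95% interval 0.12 to 0.48, limma adjusted p = 0.0802), or 1.23-fold. A further bright probe set of Usp40 differed by 0.20.

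Usp39, which lacks protease activity and is a component of the spliceosome, had the lowest difference of the family. It read 10.88 and 10.89 in WT and 10.87, 10.07 and 10.62 in the mutant arrays, so that replicate 2 was at 0.567 times and replicate 3 at 0.835 times the WT mean. With 5 arrays the means were 10.88 ± 0.01 (SD, n = 2) and 10.52 ± 0.41 (SD, n = 3), a difference of -0.36 (SE 0.26, limma adjusted p = 0.748). Over 4 arrays it was -0.54 (SE 0.21, 95% interval -1.12 to 0.04, limma adjusted p = 0.197), which is 1.45-fold lower. That probe set is of the class that Affymetrix marks as able to bind unrelated transcripts. The other Usp39 probe set read 9.96 and 10.02 in WT and 9.88, 9.88 and 9.67 in the mutant arrays, a difference of -0.22. Usp53 and Usp54, a pair of paralogues, showed no common side. Usp53 read 7.71 and 7.48 in WT and 7.57, 7.98 and 7.56 in the mutant arrays, and Usp54 7.53 and 7.53 in WT and 7.590, 7.528 and 7.502.

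The members listed as germline or sex chromosome genes were mostly dim, with 4 of 8 listed measured and 1 of them bright. That list leaves out the X-linked Usp9x, Usp11 and Usp27x, which were bright and are given above. The bright one, Usp17la, read 11.31 and 11.33 in WT and 11.34, 11.48 and 11.21 in the mutant arrays. Near-identical Usp17l copies can share its probes, so the value is uncertain as to the copy. Usp9y read 4.42 and 4.54 in WT and 4.62, 4.14 and 4.08 in the mutant arrays, and Usp26 4.12 and 3.88 in WT and 3.77, 3.57 and 3.85. Both lie below the median of all values, where a difference is hard to read as one of RNA level.

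**Figure D4:**
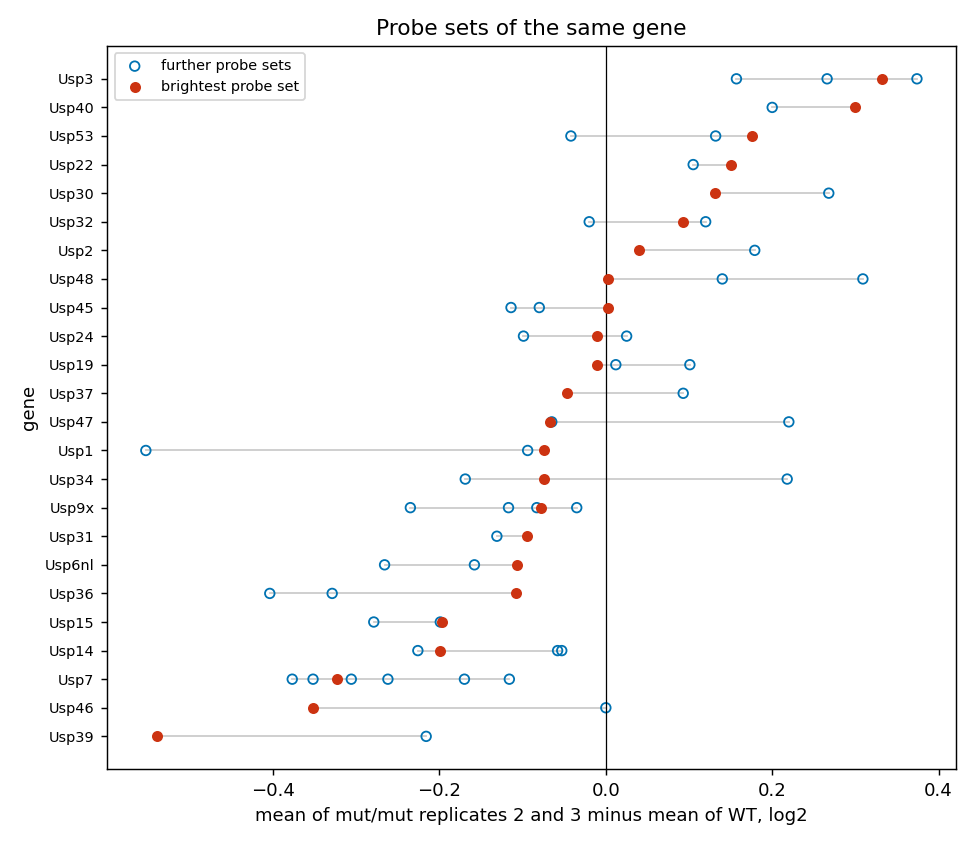
Mean of mut/mut replicates 2 and 3 minus mean of WT (x axis, log2) for the 24 members that have a further probe set above the median of all values (y axis), with the brightest probe set filled and further ones open. All 7 Usp7 probe sets lie below 0 and all 4 of Usp3 above it, while those of Usp34 and Usp47 lie on both sides.

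The plot of probe sets by gene shows how far the choice of probe set matters. Of 48 further bright probe sets in 24 genes, 37 had the sign of the brightest over 4 arrays, 10 the opposite sign and 1 no difference. Where the brightest differed by at least 0.15 in size, 18 of 20 further probe sets in 9 genes had its sign, 1 the opposite, in Usp53, and 1 none, in Usp46. Another 13 members, Usp18, Usp28 and Usp5 among them, have a single probe set.

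Other genes of the pathway were counted from lists. Of 34 other deubiquitinases 32 were measured, and over 4 arrays 22 read above WT and 10 below, with a median difference of 0.075 against 0.02 over all genes (0.045 with 5 arrays). In the 31 that were bright, 1 rose and 0 fell by limma and Benjamini-Hochberg. Of all genes in that fit 3.29% rose and 1.34% fell, so 1 of 31 is near the share of all genes. The 1 that rose was Stambpl1, a metalloprotease specific for one type of ubiquitin chain, at 8.33 and 8.26 in WT and 8.24, 9.14 and 9.09 in the mutant arrays (0.82, SE 0.07, limma adjusted p = 0.042, and 0.53 with 5 arrays). Of 10 proteases for SUMO and NEDD8, all bright, 0 passed, with a median of -0.12 (-0.08 with 5 arrays). The ubiquitin genes and E1 enzymes had 1 of 6 measured, Uba6, at -0.15 (-0.105 with 5 arrays) and not called. Among 16 of 18 partners and substrates of Usp proteins 0 passed, with 11 above WT, 5 below and a median of 0.11 (0.08 with 5 arrays). With all 5 arrays 0 genes of these lists passed.

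Among the partners, Mdm2, the p53 ligase that Usp7 acts on, read 11.10 and 11.07 in WT and 11.12, 11.84 and 11.60 in the mutant arrays, a difference of 0.43 with 5 arrays and 0.64 over 4 (limma adjusted p = 0.058). Its relative Mdm4 differed by 0.46 and 0.72 in the same order (limma adjusted p = 0.0619 over 4 arrays). Gmps, an enzyme of guanine nucleotide synthesis that binds Usp7, read 11.61 and 11.54 in WT and 11.53, 10.58 and 11.03 in the mutant arrays, a difference of -0.53 with 5 arrays and -0.77 over 4 (limma adjusted p = 0.0876). All 3 Gmps values of the mutant arrays lay below both WT arrays, as for 6.29% of all genes, and all 3 Mdm2 values above, as for 5.73%. The array labelled replicate 1 was close to WT in both, at -0.04 (Gmps) and 0.03 (Mdm2) from the WT mean. Wdr48, the activator of Usp1, Usp12 and Usp46, differed by 0.09 with 5 arrays and 0.12 over 4, with the groups overlapping. None of these 4 passed the threshold in either comparison.

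The gene starts of the members were examined in RefSeq promoter windows of GRCm38.p6, which matched 39 member genes with 40 windows of 300 bases (250 before and 50 after the start). The sequences of 4 of the 7 members with an unadjusted p under 0.05 over 4 arrays (limma) are shown for reference beside their values, as 120 bases read 5′ to 3′ on the gene's strand and ending 1 base before the outermost annotated start. Capitals mark exact matches to a motif, in Usp3 CCAAT and the SP box GGGGCGG, and in Usp8 the ETS box CCGGAAG. Usp28 and Usp40 hold no match in the stretch.
Usp28, chr9:48985199-48985318, plus strand: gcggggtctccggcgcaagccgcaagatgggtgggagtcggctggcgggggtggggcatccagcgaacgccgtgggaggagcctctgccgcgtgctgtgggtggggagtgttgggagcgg
Usp3, chr9:66593149-66593268, minus strand: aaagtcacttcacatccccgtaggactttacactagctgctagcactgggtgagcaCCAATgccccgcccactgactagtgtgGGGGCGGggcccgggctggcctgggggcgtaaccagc
Usp40, chr1:88008583-88008702, minus strand: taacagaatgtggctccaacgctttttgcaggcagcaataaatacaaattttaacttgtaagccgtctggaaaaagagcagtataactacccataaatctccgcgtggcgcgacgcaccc
Usp8, chr2:126707081-126707200, plus strand: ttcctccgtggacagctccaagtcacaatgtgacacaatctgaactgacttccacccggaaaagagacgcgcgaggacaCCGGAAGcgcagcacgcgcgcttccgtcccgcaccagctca

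In the whole windows of these 4, Usp3, which read above WT over 4 arrays, and Usp28, which read below, both hold CCAAT and GGGGCGG. Usp8 holds CCGGAAG and Usp40 TATAAA. Over all windows the median GC content was 64.7% in the members and 52.7% in all 32851 windows of the table, and the median number of CpG sites was 26 against 7. GC content of at least 50% with an observed over expected CpG ratio of at least 0.6 was met by 29 of 40 member windows (72.5%), against 33.5% of all. Motifs were searched on both strands. GGGGCGG was in 18 member windows (45%, against 23.2% of all) and CCGGAAG in 8 (20%, against 8.86%). CCAAT was in 12 (30%, against 37.4%) and TATAAA in 2 (5%, against 13.6%). The NRF1 motif was in 4 (10%, against 4.6%), CACGTG in 5 (12.5%, against 7.15%) and the YY1 motif in 2 (5%, against 0.633%). The interferon-stimulated response element was in 1 window, that of Usp49 (2.5%, against 3.44%). Usp18 had no window, so its promoter was not searched. GC-rich motifs and GC content overlap in what they count, and matches are a description of letters.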

How the data were processed

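RNA was measured on 5 Affymetrix arrays (2 WT, 3 labelled Trip12 mut/mut, grouped by their labels). The deposited values are log2 values, 1 per probe set and array, made with RMA per the submitters' processing notes. RMA corrects background, normalises the arrays to each other and summarises probes, so a shift shared by all transcripts is not visible. The RMA version was not given in the sources used here. No detection calls come with RMA. Precision is limited by how few arrays there are.

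Of 45101 probe sets 64 controls were left out. Platform annotation gave 34945 of the other 45037 probe sets 1 symbol, 932 several and 9160 none, and 34741 symbols were updated by gene number through RefSeq (GRCm38.p6). A probe set with several symbols was given no gene, which left out 4 that include a Usp name. The 128 Usp probe sets were the same by annotated and by updated symbol.

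Differences (Trip12 mut/mut minus WT) were tested with limma 3.58.1 (lmFit, eBayes, two-sided) in R 4.3.3, with genotype as the only term. P-values were adjusted by Benjamini-Hochberg over all genes fitted, with a threshold of 0.05. The fits were over 5 arrays with all genes, and over 4 arrays with genes above the median of all values on at least 2 arrays. A bright gene or probe set has a mean above that median, and a dim one does not. The script was tested on simulated data. Python 3.11.15 and matplotlib 3.10.9 were used for promoters and plots. Alternatives were normalisation, filter, probe set choice, limma settings, a replicate block and leaving out each array. Values on every array were given for the 8 highest and 8 lowest bright members over 4 arrays, the 5 brightest and the paralogue pairs. Further probe sets of Usp genes, Usp26 and the named genes of the pathway were chosen after their values were seen. Members and lists were chosen with earlier results of these data known.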

Additional observations from a re-analysis of the deposited data

How the results depend on the processing

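With 5 arrays, 0 members and 0 of all genes passed under every alternative, the replicate block included. The median member difference of -0.038 became 0.003 with the replicate block, 0.001 with probe sets averaged per gene and -0.002 with its most variable probe set, and -0.038 to 0.003 when an array was left out. Deviations of same-numbered arrays from their group means correlated at -0.048 (replicate 1) and -0.084 (replicate 2). The mutant deviations hold the split between the array labelled replicate 1 and the other mutant arrays. These correlations therefore cannot show whether the replicate numbers pair the samples. No replicate block could be fitted on 4 arrays, which leaves no residual degrees of freedom.

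Over 4 arrays, members past the threshold went from 0 to 1 (Usp28) with quantile normalisation, and to 2 (Usp18 and Usp28) with equal array medians and with the mean of probe sets. Of all genes, 1000, 1190 and 1461 passed under these settings in turn, against 539 of the 11626 fitted with the deposited values. Without the filter 0 passed, and with array weights 0. The fit with the deposited values held 44 members. Set against its numbers, 1 or 2 members is a smaller share than the matching 1000 to 1461 genes. Leaving out an array gave 0 to 21 members and 0 to 4912 genes. That was 0 members without either WT array, 10 without mut/mut replicate 2 and 21 without replicate 3, where the lone mutant array is assumed to vary like WT. The median member difference was -0.063 with quantile normalisation and 0.013 with the mean of probe sets. The cause of these shifts was not tested, and dim probe sets have no detection call.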
